A study of Mus musculus with 8 samples.

Results

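The potassium channel genes were taken as every gene symbol made of Kcn, a family letter or letters and a number. This rule gave 92 of the 24411 symbols in the count tables. They comprised 40 voltage-gated pore or modifier subunits, 8 calcium- or sodium-activated channels, 15 inward rectifiers, 14 two-pore channels and 15 accessory subunits. RNA was measured in 8 whole hearts by polyA RNA-seq. The YY1 KO group held 4 mice with a cardiac-specific knockout of Yin-Yang 1, a zinc-finger transcription factor encoded by Yy1. The control group held 4 MerCreMer mice, which carry a tamoxifen-inducible Cre recombinase. All 8 mice were C57BL/6 and had undergone transverse aortic constriction, a narrowing of the aorta that loads the left ventricle, 1 week earlier. The sources used here give neither the promoter of the Cre transgene nor the inducing agent, the age or whether the KO mice also carry the Cre, and no heart without constriction was analysed here.

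Potassium channels let potassium ions leave the cell and so repolarise the cardiomyocyte after each action potential and hold its resting potential. In mouse ventricle a fast transient outward current and several delayed rectifier currents shape early repolarisation, inward rectifiers set the resting potential, and ATP-sensitive channels open when energy runs short. In the atria and the pacemaker, acetylcholine opens a further inward rectifier that slows the heart.

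The libraries held 14582605 to 16000455 reads in genes. Yy1 had 18.0, 22.3, 19.9 and 23.8 CPM (reads of a gene scaled to library size) in YY1 KO hearts 1 to 4, against 33.8, 37.2, 36.3 and 37.1 CPM in control hearts 1 to 4, so the groups did not overlap. Its log2 fold change was -0.78 ± 0.10 (SE; adjusted p = 0.000769, edgeR quasi-likelihood test with Benjamini-Hochberg adjustment, as for all adjusted p-values here unless another tool is named). The series describes all mice as male, but YY1 KO hearts 1 and 4 and control hearts 1 and 4 had 2156 to 3512 reads of Xist, the RNA of the inactive X chromosome. The other 4 hearts had 0 to 6 Xist reads and carried reads of Y-linked genes, so each group held 2 Xist-positive and 2 Y-positive hearts. YY1 KO heart 4 also had atrial transcripts that the other hearts nearly lacked, with 11.5 CPM of the atrial myosin light chain Myl7, against at most 0.19 CPM in every other heart. Nothing in the labels says whether the hearts were handled in separate batches, and p-values measure the spread between these hearts.

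In YY1 KO hearts 15 potassium channel genes fell and 2 rose among the 49 that passed the filter on low counts. With sense-strand counts 15 fell and 0 rose: most Kcne2 reads lay on the strand opposite to the gene, and Kcnab3 no longer passed. The genes that fell came from every class and included subunits of the transient outward current (Kcnip2, Kcnd2), delayed rectifiers (Kcnq1, Kcnh2, Kcna5) and inward rectifiers (Kcnj2, Kcnj3, Kcnj4, Kcnj8). Without YY1 KO heart 4 the count was 14 lower and 1 higher, where 2328 of 13646 tested genes were lower and 2905 higher. Without YY1 KO heart 3 it was 9 lower and 1 higher, where 1668 of 13649 tested genes were lower and 2192 higher. The higher member in both fits was Kcne2. The 15 lower genes were 30.6% of the tested members, where 17.3% of all 13506 tested genes were lower. The 2 higher genes were 4.08%, where 21.6% of all tested genes were higher. In both directions together 38.9% of all tested genes passed. By class, 36.8% of tested voltage-gated members and 40% of tested inward rectifiers were lower. The shares lower were nearer the 17.3% over all tested genes in the other classes. They were 22.2% for accessory subunits, 20% for calcium- or sodium-activated channels and 16.7% for two-pore channels. The median log2 fold change was -0.46 over the tested members and 0.01 over all tested genes. The groups did not overlap for 12 tested members, 10 lower and 2 higher, or 24.5%, against 38.3% of all tested genes. The other 43 members had too few reads to test in the counts used, which disregard strand. In these counts 11 of them had 0 reads in every heart. Among these 11, Kcnmb4 had 19 sense-strand reads and 1 opposite-strand read over all hearts, so its 0 is no sign of absent RNA. Counts of 0 allow at most 0.178 to 0.214 CPM in a library (3 counts, counting error only), a limit that does not apply to Kcnmb4. In whole hearts, fewer cells of a type and less RNA per cell cannot be told apart.

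**Figure D1:**
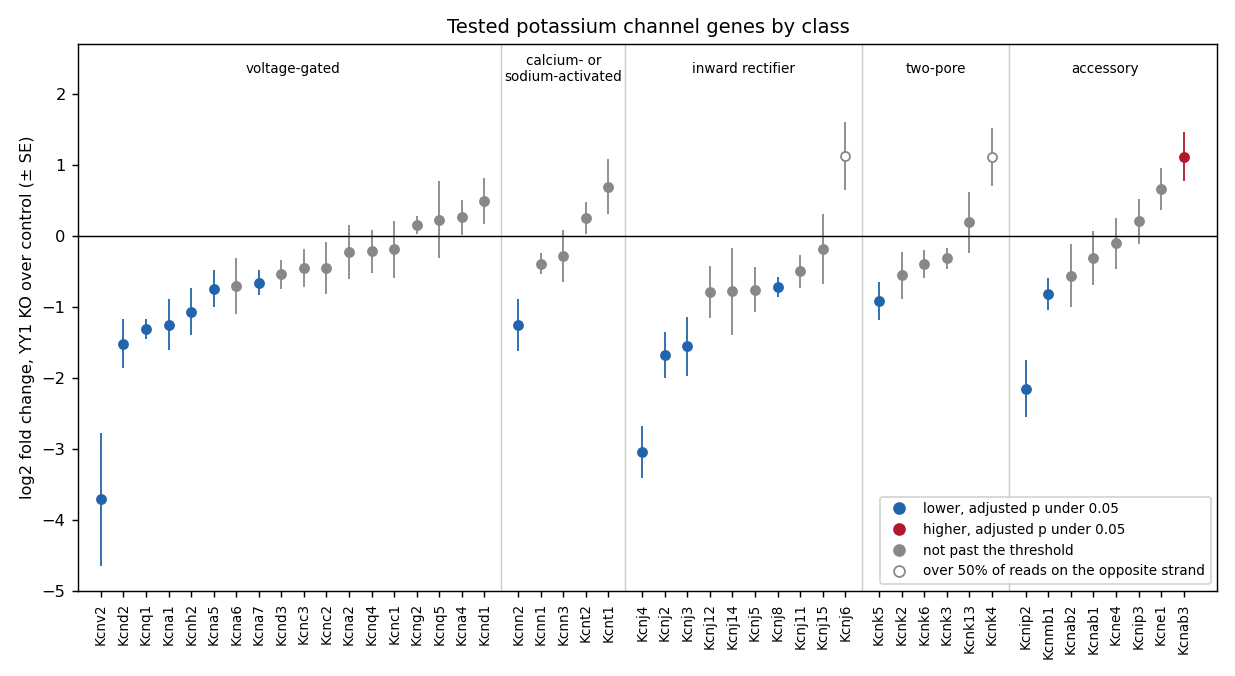
Log2 fold change of the tested potassium channel genes (YY1 KO over control, ± SE), grouped by class on the horizontal axis; colours mark genes past the adjusted p threshold of 0.05, and Kcne2 is left out because most of its reads were on the opposite strand, as is 1 gene not reported here. Genes past the threshold lie below 0 in each class, from Kcnv2 at -3.72 and Kcnj4 at -3.04 to Kcna7 at -0.66, and Kcnab3 at 1.11 is the filled point above 0 that passed.

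Summed over all members, potassium channel RNA stood at 241, 339, 283 and 302 RPKM (CPM per kilobase of exon) in YY1 KO hearts 1 to 4, against 615, 534, 367 and 426 RPKM in control hearts 1 to 4. The sums did not overlap, and the YY1 KO mean of 291 ± 40.5 RPKM was 60.0% of the control mean of 485 ± 111 RPKM (SD, n = 4 each). By class the YY1 KO mean was 73.9% of the control mean for voltage-gated subunits, 72.2% for calcium- or sodium-activated channels, 60.8% for inward rectifiers, 80.1% for two-pore channels and 28.7% for accessory subunits. Kcnip2 alone made up 69.3 ± 11.9% of the accessory sum in YY1 KO hearts and 91.8 ± 4.16% in control hearts.

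**Figure D2:**
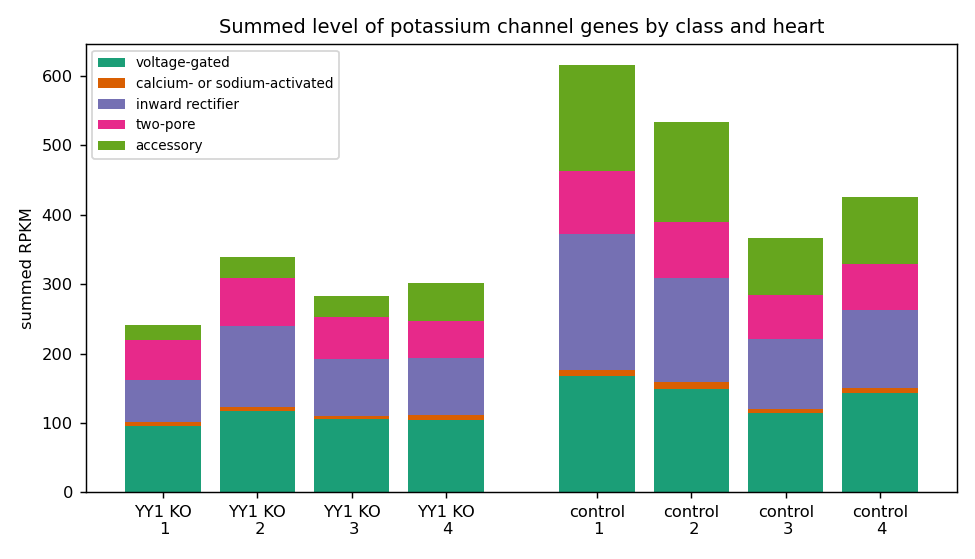
Summed RPKM of the potassium channel genes in each heart (vertical axis), stacked by class, with YY1 KO hearts 1 to 4 on the left and control hearts 1 to 4 on the right. The sums run from 241 to 339 RPKM in YY1 KO hearts and from 367 to 615 RPKM in control hearts, and control hearts 1 and 2 carry the most inward rectifier and accessory RNA.

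Per unit of length, the leading genes took a different order in the 2 groups. In YY1 KO hearts the first 4 were Kcnk3 (56.4 ± 6.66 RPKM), Kcng2 (55.0 ± 7.67), Kcnj11 (46.4 ± 12.3) and Kcnip2 (24.7 ± 13.7). In control hearts they were Kcnip2 (109.9 ± 36.5 RPKM), Kcnk3 (70.5 ± 13.7), Kcnj11 (65.9 ± 18.8) and Kcng2 (49.7 ± 6.55; SD, n = 4 each). Neighbours in this order differed by less than the larger of their SDs except Kcnip2, which stood apart from Kcnk3 in control hearts and from Kcnj11 in YY1 KO hearts. Kcnq1 stood ninth in YY1 KO hearts (8.44 ± 1.54 RPKM) and sixth in control hearts (21.04 ± 2.48 RPKM).

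The largest fall by amount was that of Kcnip2, a gene of the transient outward current. Kcnip2, a calcium-binding subunit that brings the Kcnd pore proteins to the cell surface (chr19:45791839-45816061, minus strand, mm10), had 27.6, 54.1, 55.3 and 109 CPM in YY1 KO hearts 1 to 4, against 364, 338, 181 and 212 CPM in control hearts 1 to 4. Every YY1 KO heart was below every control heart, and the highest YY1 KO heart was number 4, the one with atrial transcripts. The mean was 61.5 ± 34.3 CPM in YY1 KO hearts and 274 ± 90.9 CPM in control hearts (SD, n = 4 each), a log2 fold change of -2.15 ± 0.40 (adjusted p = 0.00336, edgeR). The log2 fold change was -2.08 in the Xist-positive and -2.27 in the Y-positive hearts alone. Kcnd2, a pore subunit of the fast transient outward current, had 6.53, 8.35, 7.02 and 10.3 CPM in YY1 KO hearts, against 33.2, 30.8, 10.04 and 18.7 CPM in control hearts. Control heart 3 lay just below YY1 KO heart 4, so the groups overlapped, and the log2 fold change was -1.52 ± 0.35 (adjusted p = 0.00842, edgeR). Kcnd3, the second pore subunit of this current, did not pass: it had 10.7, 19.1, 12.3 and 11.9 CPM in YY1 KO hearts, against 25.6, 18.4, 16.9 and 17.8 CPM in control hearts (log2 fold change -0.54 ± 0.20, adjusted p = 0.0621, edgeR). It passed with DESeq2 (adjusted p = 0.0372) and limma-voom (0.0490). Kcna4, the pore subunit of the slow transient outward current, had 4.69, 4.35, 2.66 and 3.30 CPM in YY1 KO hearts, against 3.87, 2.28, 3.54 and 2.85 CPM in control hearts. Its groups overlapped widely (log2 fold change 0.26 ± 0.25, adjusted p = 0.431, edgeR). Dpp6, another Kcnd partner, was not tested and had at most 0.0623 CPM in YY1 KO hearts and 0.316 to 1.14 CPM in control hearts. Dpp10 had 0 reads.

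The sequence just upstream of 3 of the genes is shown because YY1 is known to bind near transcription start sites, and the gene with the largest fall by amount, the resting-potential gene Kcnj2 and the called gene with a YY1 motif in its window serve as examples. Each run gives the 250 bases before the RefSeq start site (GRCm38.p6, the same build as mm10), 5′ to 3′ on the gene's strand, and capitals mark a match to the YY1 motif letters CCATNTT on either strand.
Kcnip2 (chr19:45816064-45816313, minus strand): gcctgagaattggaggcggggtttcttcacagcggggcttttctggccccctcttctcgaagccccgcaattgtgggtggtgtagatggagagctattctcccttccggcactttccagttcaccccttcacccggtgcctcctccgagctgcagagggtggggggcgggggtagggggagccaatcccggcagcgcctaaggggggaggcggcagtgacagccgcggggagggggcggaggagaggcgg
Kcnj2 (chr11:111065914-111066163, plus strand): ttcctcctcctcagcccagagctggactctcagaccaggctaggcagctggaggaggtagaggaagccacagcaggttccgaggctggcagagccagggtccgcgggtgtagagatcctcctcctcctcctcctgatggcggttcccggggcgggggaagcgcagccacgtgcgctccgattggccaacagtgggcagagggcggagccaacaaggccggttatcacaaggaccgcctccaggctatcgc
Kcnmb1 (chr11:33962763-33963012, plus strand): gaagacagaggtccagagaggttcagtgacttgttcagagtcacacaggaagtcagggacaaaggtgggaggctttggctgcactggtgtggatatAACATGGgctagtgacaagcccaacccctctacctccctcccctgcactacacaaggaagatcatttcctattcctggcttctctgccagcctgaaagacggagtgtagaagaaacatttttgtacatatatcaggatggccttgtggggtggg
The match before Kcnmb1 starts 154 bases before the start site and reads as CCATNTT on the opposite strand. Over windows that also took in 50 bases after the start, CCATNTT lay in 8 of 92 windows of the 67 members that had one, against 16.1% of all 32851 RefSeq promoter windows. The longer GCCATNTT, which contains CCATNTT, lay in 2 of 92 member windows, against 6.05% of all windows. Among the called members the letters lay only in the Kcnmb1 window. A match is a string of letters and no evidence of binding, and no match says only that the letters are not in the window.

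Of the 40 voltage-gated members 19 were tested, 7 fell and 0 rose (edgeR). The lower genes were 36.8% of those tested, against 17.3% of all tested genes. DESeq2 and limma-voom also gave 0 higher, as did an unadjusted edgeR p under 0.05. The count of lower genes was 4 without YY1 KO heart 1, without YY1 KO heart 3 or without control heart 2. Kcnq1, the pore of the slow delayed rectifier (chr7:143106362-143427042, plus strand), had 22.6, 23.2, 24.0 and 32.5 CPM in YY1 KO hearts, against 71.8, 63.3, 53.8 and 65.96 CPM in control hearts. The groups were far apart, and the log2 fold change of -1.32 ± 0.14 (adjusted p = 0.000342, edgeR) was -1.33 in the Xist-positive and in the Y-positive hearts alone. Its partner Kcne1, the small subunit that slows Kcnq1 channels, ran the other way without passing: it had 7.24, 10.7, 7.28 and 11.3 CPM in YY1 KO hearts, against 4.16, 4.56, 4.67 and 9.68 CPM in control hearts (log2 fold change 0.66 ± 0.30, adjusted p = 0.107, edgeR). Control heart 4 overlapped the YY1 KO hearts. Without it the log2 fold change was 1.02 (adjusted p = 0.00999, edgeR). Kcnh2, the pore of the rapid delayed rectifier, had 28.1, 63.7, 42.3 and 44.8 CPM in YY1 KO hearts, against 148, 99.5, 51.9 and 76.5 CPM in control hearts. Control heart 3 lay below YY1 KO heart 2, and the fall (log2 fold change -1.07 ± 0.33, adjusted p = 0.0298, edgeR) was lost in 9 of 20 alternative fits, among them those without YY1 KO heart 1, 3 or 4 or without control heart 1 or 2 (adjusted p 0.0586 to 0.0795, edgeR).

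Kcna5, a pore subunit of a rapidly activating delayed rectifier, had 31.2, 31.5, 38.9 and 57.2 CPM in YY1 KO hearts, against 47.1, 64.0, 56.7 and 98.9 CPM in control hearts. YY1 KO heart 4 lay above control hearts 1 and 3, the log2 fold change was -0.75 ± 0.26 and the adjusted p of 0.0484 (edgeR) was the nearest to the threshold among the lower members. It was lost in 11 of 20 alternative fits, among them those without YY1 KO heart 1, 2 or 3 or without control heart 2, 3 or 4.

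Kcnv2, a modifier subunit that forms no channel alone and joins other voltage-gated pores, had 0.119, 0.951, 0.130 and 1.25 CPM in YY1 KO hearts, against 18.6, 8.97, 1.14 and 3.73 CPM in control hearts. Control hearts 1 and 2 were far above the other 6 hearts, and control heart 3 lay below YY1 KO heart 4. The log2 fold change was -3.72 ± 0.94 (adjusted p = 0.0133, edgeR), -2.91 without control heart 1 and -4.35 without YY1 KO heart 4, and limma-voom gave an adjusted p of 0.0620. Kcng2, another such modifier subunit, made up 51.9 ± 5.75% of voltage-gated RPKM in YY1 KO hearts and 34.9 ± 3.36% in control hearts (SD, n = 4 each). Its own CPM differed little, with 153, 181, 156 and 129 CPM in YY1 KO hearts, against 162, 148, 125 and 124 CPM in control hearts (log2 fold change 0.15 ± 0.13, adjusted p = 0.395, edgeR). The larger share thus came with a smaller class sum.

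Kcna7, a Shaker-family pore found in heart and skeletal muscle, had 9.62, 13.1, 12.4 and 10.04 CPM in YY1 KO hearts, against 21.5, 20.5, 13.4 and 16.1 CPM in control hearts. The groups did not overlap, though YY1 KO heart 2 and control heart 3 were close (log2 fold change -0.66 ± 0.18, adjusted p = 0.0165, edgeR). Kcna1, a delayed rectifier pore best known from neurons, had 1.72, 1.56, 1.43 and 2.49 CPM in YY1 KO hearts, against 6.34, 5.34, 2.02 and 3.60 CPM in control hearts. Control heart 3 lay below YY1 KO heart 4, and the fall (log2 fold change -1.25 ± 0.36, adjusted p = 0.0224, edgeR) was lost without YY1 KO heart 1, 2 or 3 or without control heart 2 (adjusted p 0.0533 to 0.0672).

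**Figure D3:**
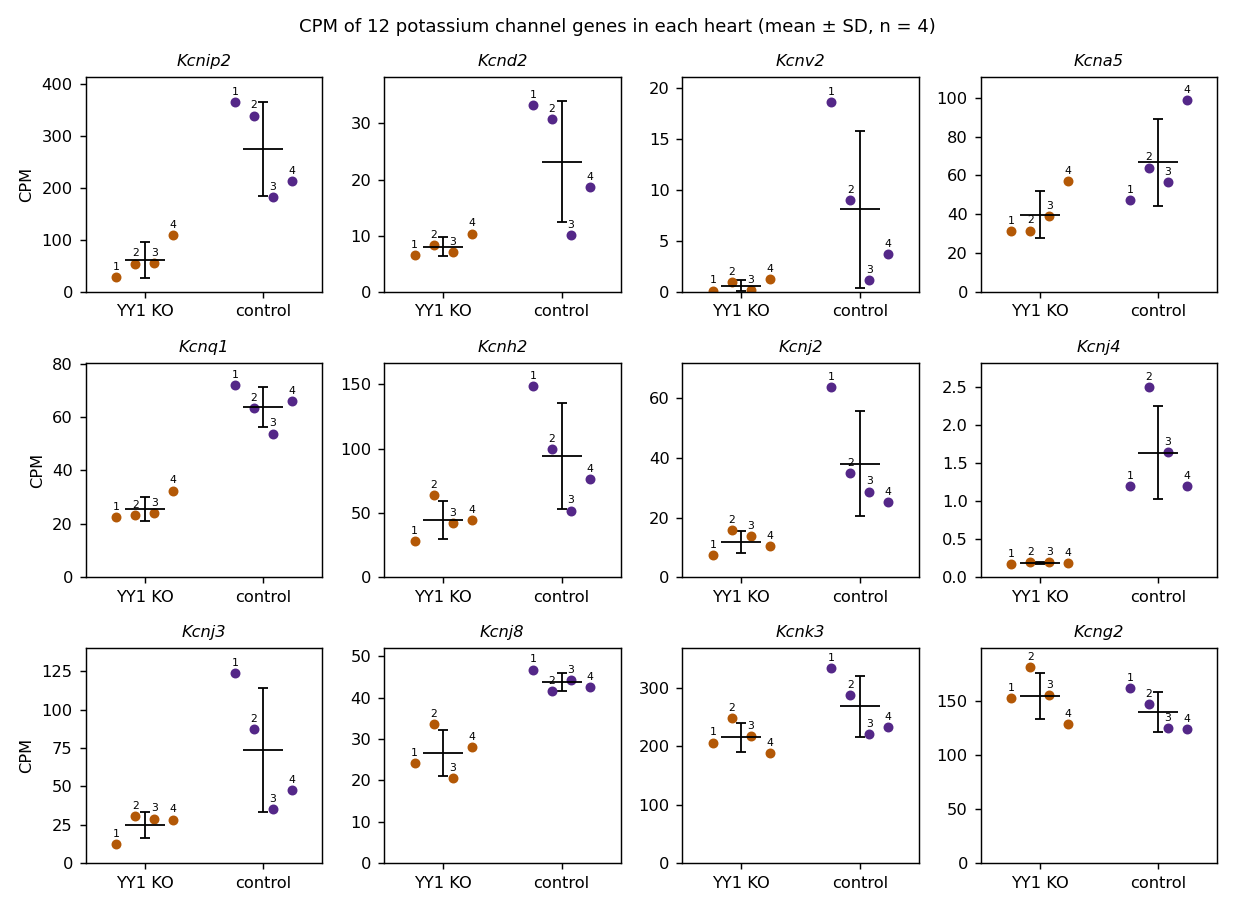
CPM of 12 potassium channel genes in each heart, 1 panel per gene with its own vertical axis from 0; points are hearts labelled by mouse number, and bars give mean ± SD (n = 4). Kcnip2, Kcnq1, Kcnj2, Kcnj4, Kcnj3 and Kcnj8 show no overlap between groups, whereas Kcnd2, Kcnv2, Kcna5 and Kcnh2 overlap, and Kcnk3 and Kcng2 are genes that did not pass.

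Of the 15 inward rectifiers 10 were tested and 4 fell, or 40%, against 17.3% of all tested genes. In edgeR, DESeq2 and limma-voom 0 rose. At an unadjusted edgeR p under 0.05, 1 was higher, Kcnj6. Its reads cannot be assigned to Kcnj6, because 98.2% of its stranded reads lay on the opposite strand. Kcnj2, the main pore of the current that holds the ventricular resting potential (chr11:111066164-111076821, plus strand), had 7.48, 15.7, 13.7 and 10.5 CPM in YY1 KO hearts, against 63.7, 34.7, 28.7 and 25.0 CPM in control hearts. The groups did not overlap (log2 fold change -1.68 ± 0.33, adjusted p = 0.0041, edgeR), and control heart 1 stood above the other controls. Within Xist-positive hearts the log2 fold change was -2.30 and within Y-positive hearts -1.13. Kcnj4, a further pore of the same type, had 3 reads in each YY1 KO heart, against 17, 35, 26 and 19 reads in control hearts, or 0.178, 0.204, 0.195 and 0.187 CPM against 1.20, 2.49, 1.64 and 1.20 CPM. No YY1 KO heart reached the lowest control (log2 fold change -3.04 ± 0.37, adjusted p = 0.000564, edgeR). Kcnj12, the third pore of this current, had 9.32, 35.2, 20.1 and 19.0 CPM in YY1 KO hearts, against 54.2, 34.8, 26.7 and 29.4 CPM in control hearts. YY1 KO heart 2 lay above 3 of the control hearts, and the gene did not pass (log2 fold change -0.80 ± 0.37, adjusted p = 0.115, edgeR), though it did without that heart (-1.17, adjusted p = 0.0271).

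The acetylcholine-activated channel is built from Kcnj3 and Kcnj5. Kcnj3 had 12.3, 30.3, 28.8 and 28.2 CPM in YY1 KO hearts, against 124, 87.3, 35.2 and 47.6 CPM in control hearts. The groups did not overlap, control hearts 1 and 2 were the highest, and the log2 fold change was -1.56 ± 0.42 (adjusted p = 0.0167, edgeR). Kcnj5 had 38.8, 78.8, 54.8 and 58.2 CPM in YY1 KO hearts, against 150, 112, 53.8 and 75.4 CPM in control hearts, overlapping and not past the threshold (log2 fold change -0.76 ± 0.32, adjusted p = 0.0849, edgeR). It passed with DESeq2 (adjusted p = 0.0380) and without control heart 3 (0.0257, edgeR). Markers of the pacemaker and conduction cells summed to 25.6 to 51.4 CPM in YY1 KO hearts and 53.9 to 64.0 CPM in control hearts, with 2 of 6 tested markers lower (Hcn4, Tbx3) and Isl1 at 0. Atrial markers summed to 3028 to 4088 CPM in YY1 KO hearts and 192 to 4318 CPM in control hearts, with Bmp10 at 0. The atrial markers Myl7 and Sln had 11.5 and 3.99 CPM in YY1 KO heart 4. In every other heart they had at most 0.19 and 0.14 CPM. Of the 4 tested atrial markers 2 were higher (Myl4, log2 fold change 2.48, and Dkk3, 1.40) and 1 lower (Stard10, -0.79). Most of the atrial sum in both groups was Nppa, which is also a load-response gene. The part of either cell type in these falls was not tested.

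The ATP-sensitive channel pairs a pore, Kcnj11 or Kcnj8, with a sulfonylurea receptor, Abcc9 or Abcc8. Kcnj11, the cardiomyocyte pore, had 110, 200, 141 and 133 CPM in YY1 KO hearts, against 280, 227, 150 and 170 CPM in control hearts. YY1 KO heart 2 lay above control hearts 3 and 4 and the gene did not pass (log2 fold change -0.50 ± 0.23, adjusted p = 0.116, edgeR); it did without that heart (0.0402). Kcnj8, the pore known from vascular smooth muscle and pericytes, had 24.2, 33.6, 20.5 and 28.1 CPM in YY1 KO hearts, against 46.8, 41.6, 44.2 and 42.6 CPM in control hearts. Control hearts were tightly grouped and all above the YY1 KO hearts (log2 fold change -0.72 ± 0.14, adjusted p = 0.00436, edgeR). Abcc9 had 108, 225, 195 and 231 CPM in YY1 KO hearts, against 611, 558, 341 and 410 CPM in control hearts (log2 fold change -1.34 ± 0.27, adjusted p = 0.00448, edgeR), also without overlap. Abcc8 averaged 79.8 ± 14.7 CPM in YY1 KO hearts and 74.2 ± 16.4 CPM in control hearts (log2 fold change 0.10 ± 0.18, adjusted p = 0.675, edgeR). Pericyte markers summed to 348 to 447 CPM in YY1 KO hearts and 538 to 752 CPM in control hearts, with 4 of 6 lower, smooth muscle markers to 282 to 583 and 418 to 577 CPM, with 1 of 6 lower and 1 higher, and endothelial markers to 781 to 963 and 1156 to 1645 CPM, with 5 of 6 lower. None of these marker lists has a defining gene at 0, and their part in the fall of Kcnj8 and Abcc9 was not tested.

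Of the 14 two-pore members 6 were tested and 1 fell, while 0 rose in edgeR (1 at an unadjusted p under 0.05) and DESeq2 and 1 in limma-voom (Kcnk4, with 89.5% of stranded reads on the opposite strand). The share that fell, 16.7%, was near the 17.3% over all tested genes. Kcnk3, the acid-sensitive background channel that was the leading two-pore gene at 93.5% of the class RPKM in YY1 KO hearts and 93.4% in control hearts, had 206, 249, 217 and 188 CPM in YY1 KO hearts, against 333, 288, 220 and 233 CPM in control hearts. The groups overlapped and it did not pass (log2 fold change -0.32 ± 0.15, adjusted p = 0.118, edgeR). Kcnk5, a background channel opened by alkaline pH, had 0.653, 0.611, 0.390 and 0.686 CPM in YY1 KO hearts, against 1.20, 1.14, 0.948 and 1.20 CPM in control hearts. The groups did not overlap (log2 fold change -0.93 ± 0.27, adjusted p = 0.0226, edgeR), but the call was lost without YY1 KO heart 3, control heart 2 or control heart 4 (adjusted p 0.0542 to 0.0637).

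Among the 8 calcium- or sodium-activated channels 5 were tested and 1 fell, while 0 rose in edgeR, DESeq2 and limma-voom and 0 were higher at an unadjusted edgeR p under 0.05. The lower gene was 20% of those tested, near the 17.3% over all tested genes. Kcnn2, a small-conductance calcium-activated channel best known in atrial cells, had 1.42, 2.99, 3.31 and 4.18 CPM in YY1 KO hearts, against 7.68, 10.5, 3.85 and 6.58 CPM in control hearts. Control heart 3 lay below YY1 KO heart 4, and the fall (log2 fold change -1.26 ± 0.37, adjusted p = 0.0244, edgeR) was lost without YY1 KO heart 2 or 3 or control heart 2 (adjusted p 0.0519 to 0.0697). Kcnn1, from the same family, had 15.3, 15.4, 13.6 and 15.3 CPM in YY1 KO hearts, against 24.2, 21.8, 16.8 and 15.7 CPM in control hearts, a narrow gap that did not pass (log2 fold change -0.39 ± 0.15, adjusted p = 0.0596, edgeR; DESeq2 0.0432). Kcnma1, the large-conductance pore, averaged 0.337 CPM in YY1 KO hearts and 0.351 CPM in control hearts and was not tested.

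Of the 15 accessory members 9 were tested, 2 fell and 2 rose. That was 22.2% in either direction, near the 17.3% lower and 21.6% higher over all tested genes. Besides Kcnip2, the lower one was Kcnmb1, the smooth muscle subunit of the large-conductance channel, with 2.49, 1.56, 1.82 and 2.31 CPM in YY1 KO hearts, against 2.68, 3.70, 3.85 and 4.24 CPM in control hearts. Every YY1 KO heart was below every control (log2 fold change -0.82 ± 0.23, adjusted p = 0.0200, edgeR), and the call was lost without YY1 KO heart 3 or control heart 4 (adjusted p 0.0603 and 0.0559). Kcnab3, a cytosolic subunit of voltage-gated channels, had 1.25, 1.02, 1.36 and 1.56 CPM in YY1 KO hearts, against 0.493, 0.285, 0.632 and 0.949 CPM in control hearts. It passed without overlap (log2 fold change 1.11 ± 0.35, adjusted p = 0.0322, edgeR), but 32.2% of its stranded reads lay on the opposite strand, and with sense-strand counts the log2 fold change was 0.67 (adjusted p = 0.275, edgeR). It was also lost in 6 of 8 fits that left out 1 heart, those without control heart 4 or YY1 KO heart 2 excepted. Kcne2, a small subunit of several delayed rectifiers, is counted as higher from 15, 19, 15 and 12 reads in YY1 KO hearts and 0, 2, 1 and 0 reads in control hearts. Because 89.1% of its stranded reads lay on the opposite strand, they cannot be assigned to Kcne2. With sense-strand counts Kcne2 had too few reads to be tested.

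The members' known partners and regulators, 35 further symbols, held 30 tested genes, of which 10 fell and 0 rose (edgeR; 2 higher at an unadjusted p under 0.05, 1 in DESeq2 and 0 in limma-voom), with a median log2 fold change of -0.22. Over all tested genes 17.3% were lower and 21.6% higher. Besides Abcc9, the lower scaffold and trafficking genes were Fhl2, Gja1, Ank2, Cav3, Rangrf and Akap9. Fhl2, a LIM-domain protein reported to bind the Kcne1 protein, averaged 513 ± 113 CPM in YY1 KO hearts and 1826 ± 190 CPM in control hearts (SD, n = 4 each; log2 fold change -1.83 ± 0.17, adjusted p = 0.000249, edgeR). Gja1, the ventricular gap junction connexin, averaged 268 ± 99.7 CPM in YY1 KO hearts and 662 ± 58.8 CPM in control hearts (log2 fold change -1.30 ± 0.24, adjusted p = 0.00344, edgeR). Ank2, an ankyrin that anchors membrane proteins, had a log2 fold change of -0.78 ± 0.15 and the caveolin Cav3 of -0.64 ± 0.10. Rangrf, a trafficking factor of the cardiac sodium channel, had -0.59 ± 0.15 and Akap9, an anchor that ties protein kinase A to Kcnq1, had -0.34 ± 0.10 (adjusted p 0.00182 to 0.0250 for these 4 genes, edgeR). The Akap9 call was lost without YY1 KO heart 1, YY1 KO heart 3 or control heart 2 (adjusted p 0.0609 to 0.0704, edgeR). Among 10 transcription factors tied to the transient outward gradient, 2 fell, a share near the 17.3% over all tested genes. They were the ventricular homeobox gene Irx4 (-0.53 ± 0.13) and the calcineurin-regulated Nfatc3 (-0.31 ± 0.08; adjusted p = 0.0122 and 0.0152, edgeR). Nfatc3 did not pass with library size as the scaling (0.0556). Klf15, an activator of Kcnip2 in mouse heart, averaged 88.9 ± 32.5 CPM in YY1 KO hearts and 54.7 ± 18.7 CPM in control hearts and did not pass (log2 fold change 0.70 ± 0.30, adjusted p = 0.0947, edgeR). Lrrc55, a leucine-rich subunit of the large-conductance channel, fell too, at 0.556 ± 0.477 CPM in YY1 KO hearts and 2.37 ± 1.01 CPM in control hearts (log2 fold change -2.06 ± 0.66, adjusted p = 0.0337, edgeR), a call lost without YY1 KO heart 1 or 3 or control heart 3 or 4.

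Within the control group many of the lower members were spread alike. How far other genes lower in YY1 KO hearts shared this order was not examined. Control heart 1 was the highest control for 10 of the 15 lower members and control heart 3 the lowest for 10, while YY1 KO heart 1 was the lowest YY1 KO heart for 11. The summed CPM of the load-response genes Nppa, Nppb, Myh7, Acta1 and Ankrd1 was 22430, 23997, 18613 and 19732 in YY1 KO hearts, against 1760, 8102, 18782 and 15365 in control hearts 1 to 4. Control hearts 1 and 2 were thus the lowest in load-response RNA, and both stood above control hearts 3 and 4 for 9 of the 15 lower members. For the others this order did not hold, and control heart 1 was the lowest control for 3 of the 15, Kcna5 and Kcnmb1 among them. The part of the load response in these falls was not tested. Cardiomyocyte markers summed to 41530, 66179, 63413 and 56600 CPM in YY1 KO hearts 1 to 4. In control hearts 1 to 4 they summed to 84512, 74866, 56581 and 68201 CPM, with 1 of 7 markers lower and none at 0. By this sum control heart 1 was the highest control, control heart 3 the lowest and YY1 KO heart 1 the lowest YY1 KO heart. The same hearts held these places for many of the lower members. The part of cardiomyocyte RNA in these falls was not tested.

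Of the 15 lower members, 9 passed in every fit that left out 1 heart and tested them, namely Kcnip2, Kcnd2, Kcnv2, Kcnq1, Kcna7, Kcnj2, Kcnj3, Kcnj4 and Kcnj8. With a term for sex 14 members were lower, and in the Y-positive hearts alone 7, namely Kcnq1, Kcnj4, Kcnip2, Kcnj2, Kcnmb1 and Kcna5 of the 15 and Kcnj14, another inward rectifier. Over all tested genes 2214 of 13506 were lower with that term and 1606 of 13626 in the Y-positive hearts alone. In the Xist-positive hearts alone 0 of 13671 genes passed (3451 at an unadjusted p under 0.05, edgeR). All 15 kept a negative log2 fold change there, as in the Y-positive hearts. Because the 15 were called lower in these same hearts, the kept sign is no separate support. In a test of whether the YY1 KO effect differed between Xist-positive and Y-positive hearts, 0 of 13506 genes passed (0%; 702 at an unadjusted p under 0.05, of which 3 were members, edgeR).

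**Figure D4:**
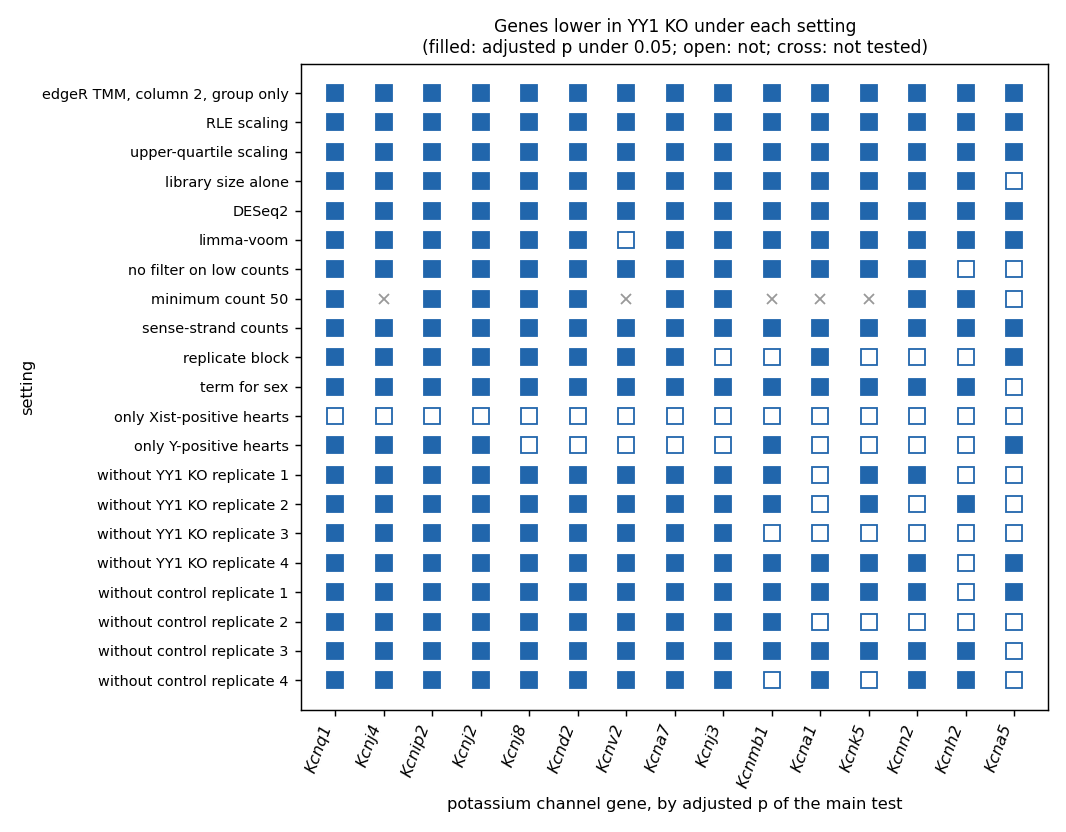
Calls of the 15 lower potassium channel genes (horizontal axis, ordered by adjusted p) under each setting (vertical axis); filled squares mark an adjusted p under 0.05, open squares none and crosses genes not tested. Kcnq1, Kcnj4, Kcnip2 and Kcnj2 are filled in every setting that tested them except Xist-positive hearts alone, while Kcnh2 is open in 9 and Kcna5 in 11 of 20 alternatives.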

How the data were processed

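RNA of snap-frozen hearts, isolated with Trizol per the labels' protocols, was made into polyA libraries. Trimmomatic and STAR, with the genome build mm10, are named per the submitters' processing notes; the sources used here give no versions, settings or gene annotation. The deposited tables hold the authors' read counts per gene, without regard to strand and strand by strand. The unstranded values were taken, so reads of overlapping genes on opposite strands were mixed or dropped; 2.66 to 5.31% of reads in the strand columns lay on the wrong strand of their gene. Lines naming no gene (33.0 to 38.9% of reads) were left out. Sense-strand counts were an alternative. Over the 8 hearts Kcnn2 had 607 unstranded and 904 sense-strand reads, Kcnq1 5416 and 6419, and Kcnk3 29430 and 33523. Part of the reads of these 3 genes is thus missing from their CPM and RPKM. The calls of Kcnn2 and Kcnq1 held with sense-strand counts.

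The filter filterByExpr (at least 4 libraries at 0.648 CPM, a count of 10) left 13506 genes. These were tested for a group effect with edgeR 4.0.16 (quasi-likelihood F test, robust, TMM scaling) in R 4.3.3, with Benjamini-Hochberg adjustment over all genes and a threshold of 0.05. The script was checked on simulated data. Alternatives used DESeq2 1.42.0 and limma 3.58.1. CPM used TMM-scaled library sizes. RPKM divided CPM by the merged exon length in GENCODE M21 (build GRCm38, which is mm10), to which 92 of 92 members matched. Libraries of a group all differed beyond counting noise (chi-square over its degrees of freedom 14.8 to 98.4). Promoter sequences came from RefSeq (GRCm38.p6).

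Members and gene lists were chosen with earlier results of these data known. Members were named with every library's value where they passed the threshold with a mean of at least 1 CPM in either group, or belong to textbook cardiac currents. Kcng2, Kcnn1, Kcnk4, Kcnj6 and Kcnj14 were added after their values were seen. Partners were named where they passed at a mean of at least 1 CPM, and others after their values were seen. Some members are counted but not reported by name here.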

Additional observations from a re-analysis of the deposited data

Results flagged for a closer look

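In all, 86 groups of 4 hearts were examined, for Yy1, members and partners named by rule, and the RPKM sums, in either genotype. Of these, 6 held 1 heart that stood apart from the other 3, by a gap that took up most of the group's range. Chance gives about 1 in 20 groups. Kcnj3 was lowest in YY1 KO heart 1, with 12.3 CPM against 28.2 to 30.3 CPM in the other YY1 KO hearts. Kcnq1 was highest in YY1 KO heart 4, with 32.5 CPM against 22.6 to 24.0 CPM. Irx4 was lowest in YY1 KO heart 4, with 28.4 CPM against 33.8 to 34.5 CPM. Nfatc3 was lowest in YY1 KO heart 3, with 21.2 CPM against 24.5 to 24.7 CPM. Kcne1 was highest in control heart 4, with 9.68 CPM against 4.16 to 4.67 CPM in the other controls. Fhl2 was highest in control heart 4, with 2111 CPM against 1721 to 1746 CPM.

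Reads on the strand opposite to Kcne2 averaged 0.897 ± 0.248 CPM in YY1 KO hearts and 0.0178 ± 0.0356 CPM in control hearts (SD, n = 4 each). They numbered 14, 18, 14 and 10 in YY1 KO hearts, against 0, 1, 0 and 0 in control hearts. The unstranded counts hold these reads, so the Kcne2 call in the main fit rests mostly on them. They were not compared between groups on their own.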

How the results depend on the processing

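Of 711 values of single genes under the alternatives, 0 changed sign, but most of these genes were picked because they passed in the same hearts. Leaving out 1 heart at a time gave 9 to 18 lower and 1 to 3 higher members (15 and 2 in the fit reported), by class 4 to 8 lower voltage-gated, 0 to 2 lower calcium- or sodium-activated, 4 to 6 lower and 0 to 1 higher inward rectifiers, 0 to 1 lower and 0 to 1 higher two-pore channels, 1 to 2 lower and 1 to 3 higher accessory subunits, and 8 to 10 lower and 0 to 2 higher partners. Over all tested genes, leaving out 1 heart gave 1668 to 2439 lower and 2192 to 2905 higher (2337 and 2911 in the fit reported). The inward rectifier higher without control heart 3 was Kcnj6, with 98.2% of stranded reads on the opposite strand. In Xist-positive hearts alone 0 genes were higher and 0 lower, so every class and the partners had 0, and Yy1 had a log2 fold change of -0.76 that did not pass. In Y-positive hearts alone 1730 of 13626 genes were higher and 1606 lower, and 7 members were lower (2 voltage-gated, 0 calcium- or sodium-activated, 0 two-pore). The 1 member higher there was the accessory subunit Kcne2, with 89.1% of stranded reads on the opposite strand, and 2 partners were higher. A minimum count of 50 left 9 members lower (4 voltage-gated, 0 two-pore, 1 accessory) and 0 higher, accessory included, where 2151 of 11499 tested genes were lower. Of the 6 lower members lost, 5 were not tested at that minimum. The sixth, Kcna5, was tested and missed the threshold (adjusted p = 0.0514, edgeR). Sense-strand counts left 0 members higher, accessory included, and 1 partner. DESeq2 called 2 calcium- or sodium-activated channels lower and 1 partner higher. Library size alone called 1 two-pore channel and 1 partner higher, limma-voom 1 two-pore channel higher, and dropping the filter 1 voltage-gated gene higher. With the replicate block 10 members were lower (0 calcium- or sodium-activated, 0 two-pore, 1 accessory), where 1816 of 13506 tested genes were lower. Deviations from the group mean correlated between same-numbered mice at -0.46, 0.34, -0.06 and 0.27. The highest correlations with a control of another number were 0.48, 0.42, 0.27 and 0.04. Same-numbered mice also matched in being Xist-positive or Y-positive. Such correlations are too few to decide whether the numbers pair mice, and the labels state no pairing. The cause of these changes was not tested unless stated. Members under about 1 CPM rest on some 10 reads per library, where depth limits precision.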
